A study of Arabidopsis thaliana with 16 samples.

Results

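The genes described here encode enzymes of photorespiration and were taken by their locus identifiers: PGLP1, GOX1, GOX2, GGT1, AGT1, SHM1, GLDP1, GLDT, HPR1 and GLYK. They are 10 of the 28598 genes in a table of RNA-seq read counts. The table covers a dispersed suspension cell line prepared from leaves of Arabidopsis thaliana, ecotype Columbia (Col-0), which was kept on a shaker in a medium with sucrose and a synthetic auxin. Light grown cells received constant light (4 libraries, Light-RNA1 to Light-RNA4), and Dark grown cells were kept under aluminium foil for 2 weeks (4 libraries, Dark-RNA1 to Dark-RNA4). All 8 were given a sampling time of 16 h after passage, although the protocol also names a later time for some Light grown cells. All cells shared the line, the medium and the temperature, so sugar was supplied in both groups.

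Photorespiration begins when Rubisco takes oxygen in place of carbon dioxide and makes phosphoglycolate, which is of no use to the Calvin cycle. In leaves the pathway returns most of that carbon to the cycle by passing it through the chloroplast, the peroxisome and the mitochondrion. Phosphoglycolate is dephosphorylated in the chloroplast, glycolate is oxidised and aminated to glycine in the peroxisome, glycine is converted to serine in the mitochondrion, serine is turned into glycerate back in the peroxisome, and glycerate is phosphorylated in the chloroplast. Mutants of many of these steps grow in air enriched in carbon dioxide and become pale or stunted in normal air.

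Total counts per library ran from 18363149 to 37813411 in the Light grown group and from 29916585 to 32688689 in the Dark grown group, and a count of 3, used as the floor of detection, was worth 0.0779 to 0.159 CPM (read counts relative to the scaled library total) in the former and 0.0942 to 0.0994 CPM in the latter. Light-RNA4, the shallowest library, was the lowest Light grown library for 8 of the 9 member genes that were tested, and it held the lowest Light grown value for 61.4% of all genes called lower in the dark. Of 5 genes of photosynthetic cells used as markers, 4 passed the filter on low counts and all 4 were lower in the dark. Their summed level was 287 to 552 CPM in the light and 2.64 to 16.9 CPM in the dark, while CA1, a carbonic anhydrase abundant in leaves, lay between 0.026 and 0.159 CPM in every library. Of 2 root hair genes, RHD6 was higher in the dark (log2 fold change 2.69, SE 0.62, adjusted p = 0.0297), while RHS3 held at most 7 counts in any library and did not pass the filter. The summed level of the pair, in which RHD6 was the higher gene in every library, was 0.683 to 3.79 CPM in the light and 7.98 to 12 CPM in the dark. Of 3 guard cell genes, 1 passed the filter and was not called. That list summed to 1.06 to 4.4 CPM in the light and 2.09 to 6.77 CPM in the dark. Epidermal, phloem and xylem markers did not pass the filter and each of these lists summed to at most 0.467 CPM in any library. The part that such differences between the cultures had in the results was not tested. In bulk RNA, fewer cells of a type and less RNA per cell cannot be told apart, and this holds for every level given here.

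The table lists 2 loci for phosphoglycolate phosphatase that reads cannot separate. PGLP1 (AT5G36700, chr5:14421182-14424610, minus strand) has a copy, AT5G36790 (chr5:14480482-14483927, minus strand), and their coding sequences are 100% identical over 1089 bases. All 50-base windows of the exons of PGLP1 (1627 windows, 100%) also occur between the start and end of the copy. The coordinates and sequences are those of RefSeq for TAIR10.1. The first 30 coding bases are printed to show that the copies share them, from chr5:14424401-14424430 and from chr5:14483701-14483730, both on the minus strand.
PGLP1: atgctgagtagatcagttgcttctgctgtt
AT5G36790: atgctgagtagatcagttgcttctgctgtt

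The glycolate oxidase genes GOX1 (AT3G14420, chr3:4821391-4824178, plus strand) and GOX2 (AT3G14415, chr3:4818251-4821013, plus strand) lie next to each other, but reads can separate them. Of 1104 aligned coding bases 92.4% were identical, and no 50-base window was shared between their exons. A stretch in which 8 of 30 bases differ is printed to show how neighbouring copies are told apart, with the differing bases in capitals, from chr3:4823729-4823758 for GOX1 and from chr3:4820578-4820607 for GOX2.
GOX1: gtAttCTcaTtGgcAgctgaaggagaGgcT
GOX2: gtTttTGcaCtAgcTgctgaaggagaAgcC

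Of the 10 members, 9 passed the filter on low counts, and 6 of these 9 were lower in the dark at an adjusted p below 0.05 (edgeR's quasi-likelihood test, Benjamini-Hochberg adjustment over all 19129 genes tested). GOX1, GGT1, AGT1, SHM1, GLDT and HPR1 fell, GOX2, GLDP1 and GLYK did not pass the test, and no member rose. Over all genes tested, 10.0% were called, 6.31% lower and 3.69% higher. The median log2 fold change, dark against light, was -0.86 over the 9 tested members and 0.0 over all genes. By compartment, 4 of 5 peroxisomal members fell (median log2 fold change -3.70) and 2 of 3 mitochondrial members fell (median -0.64), while the single chloroplast member that could be tested, GLYK, was not called. In the same 6 genes the highest Dark grown value was below the lowest Light grown value, a separation that 10.1% of all genes showed in that direction, and no tested member had the opposite separation, which 6.5% of all genes showed. With any 1 library left out the number of members called was 5 to 7.

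**Figure D1:**
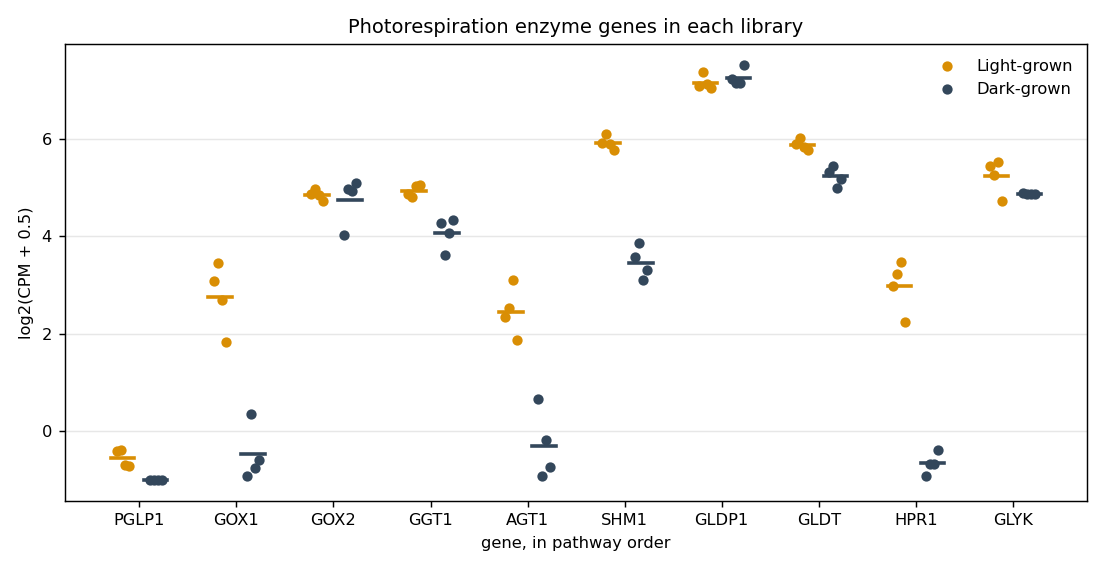
Level of each of the 10 member genes in each library, as log2 of CPM plus 0.5 on the y axis, with genes in pathway order on the x axis, 4 Light grown and 4 Dark grown libraries as points. HPR1, GOX1, AGT1 and SHM1 show the widest gaps between the groups, and the points of GOX2, GLDP1 and GLYK overlap, while PGLP1 is drawn from its own counts, which cannot be told from those of its copy.

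For phosphoglycolate phosphatase, the chloroplast entry step, few reads were assigned to either copy in the light and none in the dark. PGLP1 held 10, 9, 3 and 2 counts in Light-RNA1 to Light-RNA4 and 0 in each of the 4 Dark grown libraries, and it did not pass the filter. Because reads cannot separate the copies, the values are given for their sum, which was 20, 18, 10 and 6 counts in the light and 0 in every Dark grown library. How reads that match both copies were counted is not given in the sources used here, so these counts do not measure how strongly the step was expressed. Pooled over each group, the sum was 0.468 CPM in the light (54 counts) and under the floor of 3 counts over the 4 Dark grown libraries together, 0.0242 CPM, so the assigned counts were at least 19.4-fold higher in the light. The sum was lower in the dark when it was fitted in place of the single copies (adjusted p = 0.00728).

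GLYK (AT1G80380, chr1:30217116-30220595, plus strand), the kinase that returns glycerate to the Calvin cycle, was present in all libraries and did not pass the test. Its levels were 42.5, 37.6, 45.2 and 25.9 CPM in Light-RNA1 to Light-RNA4 and 29, 28.6, 28.4 and 28.4 CPM in Dark-RNA1 to Dark-RNA4. The groups overlapped only because Light-RNA4 lay below all Dark grown libraries. The log2 fold change was -0.40 (SE 0.16, 95% interval -0.77 to -0.04, adjusted p = 0.157), and without Light-RNA4 it was -0.55 with an adjusted p of 0.00893. PLGG1, the glycolate and glycerate carrier of the chloroplast envelope that links both ends of the pathway, held 28, 61, 72 and 56 counts in the light and 4, 1, 2 and 0 counts in the dark, where 3 of the 4 libraries were under the floor of 3 counts. It was lower in the dark (log2 fold change -5.12, SE 0.77, adjusted p = 0.00436), and the log2 fold change was -5.85 without Dark-RNA1.

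In the peroxisome, glycolate is oxidised to glyoxylate by glycolate oxidase, and GOX1, GOX2 and GOX3 of this family differed in direction. GOX1 had 7.95, 10.4, 5.93 and 3.07 CPM in Light-RNA1 to Light-RNA4 and 0.0318, 0.781, 0.0942 and 0.166 CPM in Dark-RNA1 to Dark-RNA4. All Dark grown values lay below all Light grown values, and Dark-RNA1 held a single count. GOX1 fell by 4.66 on the log2 scale (SE 0.82, 25.3-fold lower in the dark, adjusted p = 0.00955). Dark-RNA2 held 24 counts against 1 to 5 in the other Dark grown libraries, and without that library the log2 fold change was -6.09. GOX2, its neighbour on the same strand, had 28.5, 30.8, 28.2 and 25.8 CPM in the light and 15.8, 30.6, 29.7 and 33.6 CPM in the dark. Dark-RNA1 was low and the other Dark grown libraries were within or above the Light grown range. Its log2 fold change was -0.04 (95% interval -0.53 to 0.44, adjusted p = 0.926), and it was 0.15 without Dark-RNA1. GOX3, a further glycolate oxidase gene of the same family, had 24.6, 25, 20.6 and 25.6 CPM in the light and 26.3, 41.7, 39.8 and 43.0 CPM in the dark. It rose by 0.66 on the log2 scale (SE 0.16, adjusted p = 0.0368), a call that was lost when any of Light-RNA1, Light-RNA2, Light-RNA3, Dark-RNA2, Dark-RNA3 or Dark-RNA4 was left out (adjusted p = 0.0548 to 0.118). GOX1 also overlaps AT3G14430 on the opposite strand, and whether the counting used strand is not given in the sources used here. AT3G14430 held 106 to 232 counts in the light and 134 to 174 in the dark, where GOX1 held 58 to 351 and 1 to 24.

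Hydrogen peroxide from glycolate oxidase is removed by catalase. None of the catalase genes passed the test, with log2 fold changes of 0.25 for CAT2 (adjusted p = 0.301), -0.35 for CAT3 (adjusted p = 0.517) and -0.67 for CAT1 (adjusted p = 0.308). CAT2 is the main catalase of photorespiration in leaves.

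Of the aminotransferase genes that turn glyoxylate into glycine, the members GGT1 and AGT1 were lower in the dark, and GGT2 did not pass the test (log2 fold change 0.23, 95% interval -0.17 to 0.63, adjusted p = 0.473). GGT1 (AT1G23310, chr1:8268385-8272021, minus strand), which takes the amino group from glutamate, had 28.7, 27.5, 31.9 and 32.4 CPM in the light and 18.9, 11.8, 16.2 and 19.5 CPM in the dark. The groups did not overlap, and GGT1 fell by 0.86 on the log2 scale (SE 0.16, 1.82-fold, adjusted p = 0.0119). AGT1 (AT2G13360, chr2:5538740-5541479, minus strand), which takes it from serine and makes hydroxypyruvate, had 4.57, 5.23, 8.05 and 3.13 CPM in the light and 1.08, 0.0326, 0.377 and 0.0994 CPM in the dark. Dark-RNA1 was the highest Dark grown library and Dark-RNA2 held a single count, and the groups did not overlap. AGT1 fell by 3.70 on the log2 scale (SE 0.83, 13-fold, adjusted p = 0.0255). This call was lost without Light-RNA1 (adjusted p = 0.0599), Light-RNA2 (0.0611), Light-RNA3 (0.0819), Dark-RNA3 (0.0846) or Dark-RNA4 (0.0649), with the log2 fold change between -4.90 (without Dark-RNA1) and -3.32 (without Dark-RNA2) over all 8 single-library omissions. The related AGT2 and AGT3 had log2 fold changes of -0.11 and -0.07 and did not pass the test (adjusted p = 0.749 and 0.889).

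HPR1 (AT1G68010, chr1:25493193-25496053, plus strand), the peroxisomal hydroxypyruvate reductase that makes glycerate, had the largest fold change of the 9 tested members. It had 7.32, 8.79, 10.5 and 4.24 CPM in the light and 0.0318, 0.13, 0.126 and 0.265 CPM in the dark, which were 1 to 8 counts per Dark grown library. The groups stood far apart, and HPR1 fell by 5.77 on the log2 scale (SE 0.52, 95% interval -6.95 to -4.59, 54.5-fold, adjusted p = 0.000373). HPR2, the cytosolic reductase that can act on the same substrate, was measured at 51.6 ± 3.31 CPM in the light and 51.2 ± 1.63 CPM in the dark (SD, n = 4), with a log2 fold change of -0.01 (95% interval -0.19 to 0.17, adjusted p = 0.939) whose sign turned in some single-library omissions. HPR3 fell by 0.95 on the log2 scale (SE 0.22, adjusted p = 0.0289), a call lost on omitting Light-RNA1, Light-RNA2, Light-RNA3, Dark-RNA1, Dark-RNA3 or Dark-RNA4 (adjusted p = 0.0574 to 0.0981). PMDH1, a peroxisomal malate dehydrogenase that supplies NADH for this reduction, was 66.7 ± 2.48 CPM in the light and 81.9 ± 5.49 CPM in the dark (log2 fold change 0.30, adjusted p = 0.0487), and its call was lost on leaving out any library except Dark-RNA2 (adjusted p = 0.0549 to 0.153).

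**Figure D2:**
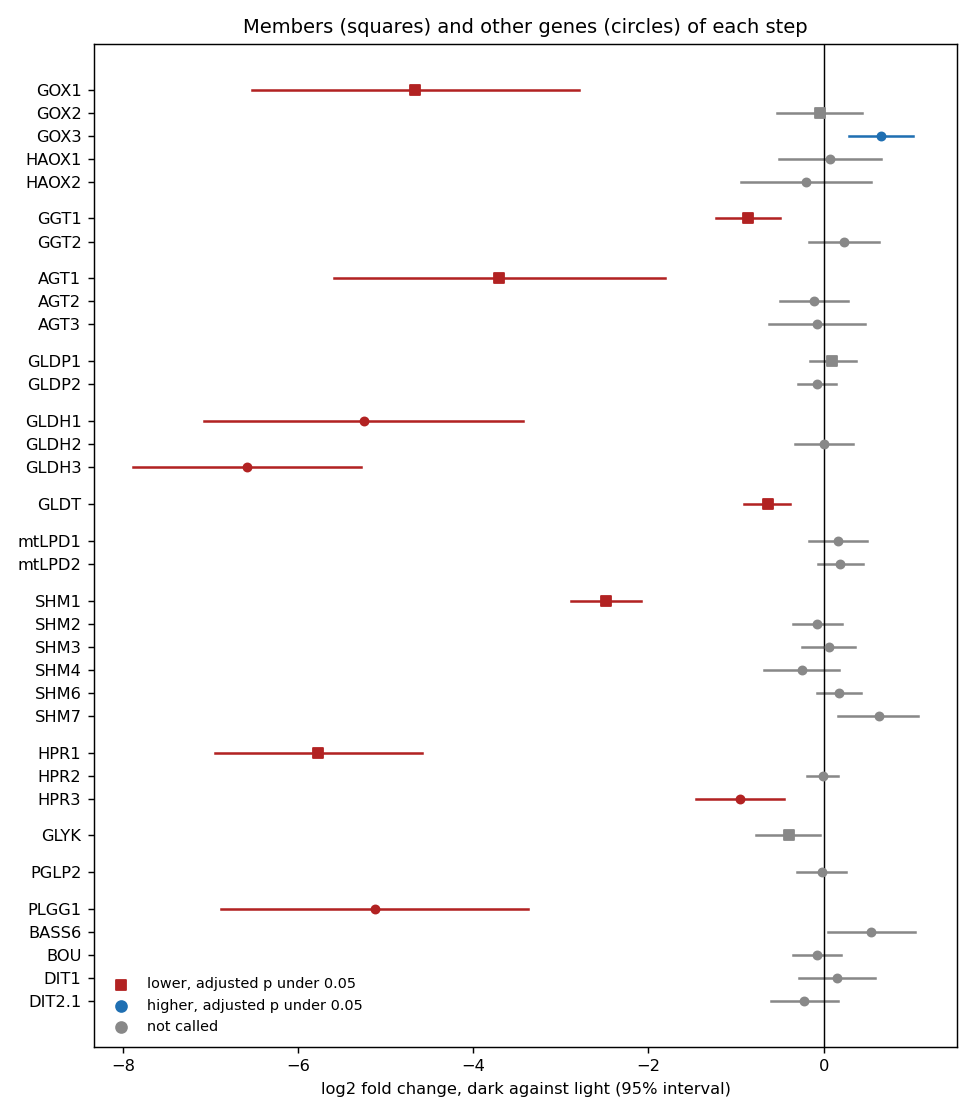
Log2 fold change of photorespiration genes, dark against light, on the x axis, with 95% intervals as lines and genes grouped by pathway step on the y axis. Squares are members, circles are the other genes, red is called lower, blue is called higher and grey is not called. HPR1 (-5.77) and GLDH3 (-6.58) lie farthest to the left of their kinds. PGLP1, its copy, SHM5, the catalases, PMDH1 (called higher), PMDH2, GLU1, GLN2 and the formyl-tetrahydrofolate deformylase genes are not drawn.

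In the mitochondrion the glycine decarboxylase complex, made of the P, H, T and L proteins, works with serine hydroxymethyltransferase to make serine from glycine. SHM1 (AT4G37930, chr4:17831731-17835017, minus strand), the transferase of this step in leaves, had 59.5, 67.4, 58.6 and 53.6 CPM in the light and 11.4, 13.9, 8.13 and 9.35 CPM in the dark. The groups were well separated, and SHM1 fell by 2.48 on the log2 scale (SE 0.17, 95% interval -2.88 to -2.09, 5.59-fold, adjusted p = 0.000168). SHM2, the other mitochondrial isozyme, did not pass the test (log2 fold change -0.07, 95% interval -0.35 to 0.21, adjusted p = 0.785).

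The P protein, which decarboxylates glycine, did not pass the test. GLDP1 (AT4G33010, chr4:15926652-15931422, minus strand) had 134, 163, 139 and 131 CPM in the light and 148, 140, 140 and 182 CPM in the dark, ranges that overlapped (log2 fold change 0.10, SE 0.12, 95% interval -0.16 to 0.37, adjusted p = 0.641). GLDP2 was measured with a log2 fold change of -0.07 (95% interval -0.29 to 0.14, adjusted p = 0.697). GLDP1 overlaps AT4G33000 on the opposite strand, which fell by 1.96 on the log2 scale (adjusted p = 0.00574) and held 89 to 641 counts per library against 2466 to 5497 for GLDP1.

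The T protein, which passes the methylene group to tetrahydrofolate, was lower in the dark. GLDT (AT1G11860, chr1:4001113-4003748, plus strand) had 58.3, 64.4, 56.5 and 53.5 CPM in the light and 39.2, 43.1, 31.2 and 35.5 CPM in the dark. The groups did not overlap, and GLDT fell by 0.64 on the log2 scale (SE 0.12, 1.56-fold, adjusted p = 0.0100).

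The H proteins, which carry what is left of glycine after its decarboxylation between the other proteins of the complex, split within their family. GLDH3 had 39.5, 58.4, 51.1 and 25.3 CPM in the light and 0.35, 1.04, 0.126 and 0.298 CPM in the dark, and it fell by 6.58 on the log2 scale (SE 0.57, 95.6-fold, adjusted p = 0.000366). GLDH1 had 20.9, 26.8, 25.2 and 12.7 CPM in the light and 0.0954, 1.63, 0.0942 and 0.431 CPM in the dark, and it fell by 5.25 (SE 0.80, 38.0-fold, adjusted p = 0.00485). Dark-RNA2 was the highest Dark grown library for both, and without it the log2 fold changes were -7.38 for GLDH3 and -6.68 for GLDH1. In Dark-RNA1 to Dark-RNA4 the counts were 11, 32, 4 and 9 for GLDH3 and 3, 50, 3 and 13 for GLDH1. Some of these lay at or near the floor of 3 counts. GLDH2 was 28.6 ± 2.55 CPM in the light and 28.6 ± 5.45 CPM in the dark (SD, n = 4), with a log2 fold change of 0.00 (95% interval -0.33 to 0.33, adjusted p = 0.989). The L protein genes mtLPD1 and mtLPD2, which also serve other mitochondrial complexes, did not pass the test (log2 fold changes 0.16 and 0.19, adjusted p = 0.55 and 0.336).

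The remaining genes around the pathway were mostly not called, which also held for all genes tested (10.0% called, 6.31% lower and 3.69% higher). Of 36 other photorespiration genes, 17 isozymes of the members and 19 partners, 35 were tested, 4 fell (GLDH3, GLDH1, PLGG1 and HPR3), 2 rose (GOX3 and PMDH1) and 29 did not pass the test, with a median log2 fold change of -0.07. In the refixation of ammonia that glycine decarboxylation releases, the plastid genes GLU1 (ferredoxin-dependent glutamate synthase) and GLN2 (glutamine synthetase) had log2 fold changes of -1.60 (SE 0.64, adjusted p = 0.163) and -0.18 (adjusted p = 0.753). PMDH2, the second peroxisomal malate dehydrogenase gene, had a log2 fold change of -1.45 (SE 0.43, adjusted p = 0.0700), with an adjusted p of 0.0356 to 0.046 when Light-RNA4 or Dark-RNA4 was left out.

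Because several members have isozymes, the log2 ratio of each of 9 pairs (CPM plus 0.5) was taken within each library and compared between the groups. The pairs CAT2/CAT3 and PMDH1/PMDH2 hold no member. SHM4 is a cytosolic isozyme of SHM1 and so lies outside the mitochondrial step. It did not pass the edgeR test (log2 fold change -0.25, adjusted p = 0.472), but it did without Dark-RNA2 (-0.48, adjusted p = 0.0179). Of 9 pairs, 8 changed (p = 0.029 for each pair in an exact permutation test, two-sided, the smallest that 4 against 4 libraries can give, and 0.032 after Benjamini-Hochberg adjustment over the 9 pairs). The ratio of GOX1 to GOX2 moved from -2.08 ± 0.59 in the light to -5.22 ± 0.54 in the dark (SD, n = 4), a difference of -3.14. The ratio of HPR1 to HPR2 moved from -2.73 ± 0.60 to -6.35 ± 0.22. The ratio of SHM1 to SHM2 moved from -0.40 ± 0.31 to -2.79 ± 0.20, and that of GGT1 to GGT2 from 1.31 ± 0.13 to 0.23 ± 0.13. GOX1 to GOX3 and SHM1 to SHM4 differed by -3.86 and -2.16. Where GOX1 and HPR1 were near or below 0.5 CPM in the dark, the added constant set the size of the ratio, and with 0.1 or 2 CPM in its place the difference was -4.41 or -1.81 for GOX1 to GOX2, -5.14 or -2.50 for GOX1 to GOX3 and -5.04 or -2.13 for HPR1 to HPR2, against -3.62 for the last with 0.5 CPM. In each of these 6 pairs the 4 Dark grown libraries lay below the 4 Light grown libraries. These 6 ratios largely restate the lower calls of GOX1, GGT1, SHM1 and HPR1 in the same libraries. Pairs that share GOX1 or SHM1 are not independent of each other. How often other gene pairs separate in this way was not tested. Ratios of CAT2 to CAT3 and of PMDH1 to PMDH2 were higher in the dark, by 0.70 and 1.56. The former lost its call on omitting any of the 4 Light grown libraries (adjusted p = 0.096 to 0.13), and the latter on omitting Light-RNA1, Light-RNA2, Light-RNA3, Dark-RNA1, Dark-RNA2 or Dark-RNA3 (adjusted p = 0.064 to 0.073). GLDP1 to GLDP2 did not pass the test (difference 0.17, exact permutation p = 0.26).

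**Figure D3:**
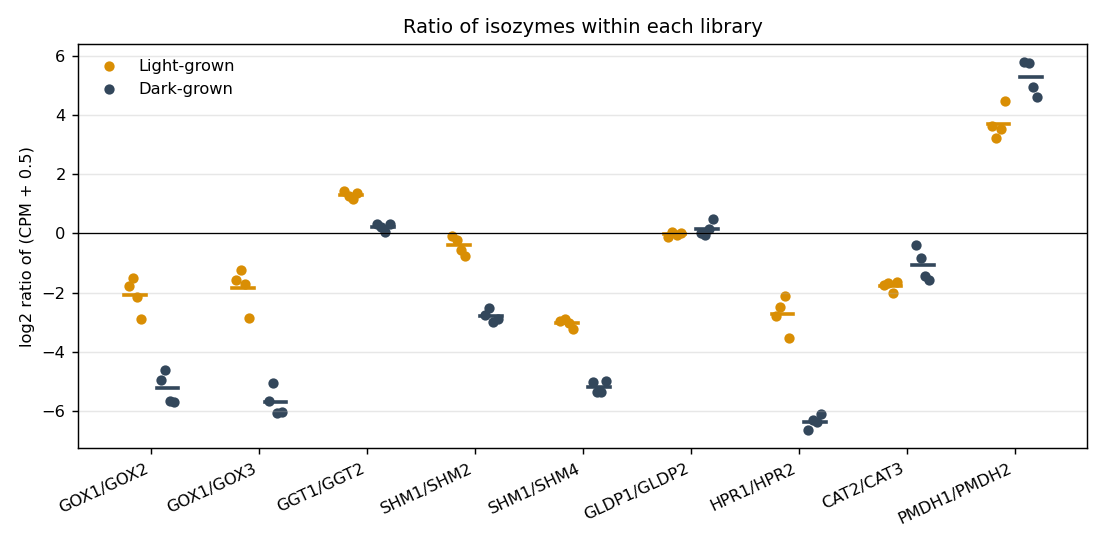
Log2 ratio of 9 isozyme pairs (CPM plus 0.5 for each gene) on the y axis, 1 point per library, for Light grown and Dark grown cells. The 4 Dark grown points lie below the 4 Light grown points for 6 pairs and above them for CAT2/CAT3 and PMDH1/PMDH2, and the points of GLDP1/GLDP2 overlap.

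The ratios above used CPM without regard to gene length, and the family sums, shares and orders below are per kb of exon. Summed over GOX1, GOX2 and GOX3, glycolate oxidase was 31.6 ± 3.02 CPM per kb in the light and 34.3 ± 8.41 in the dark (SD, n = 4). The share of GOX1 in it went from 11.2 ± 4.22% to 0.376 ± 0.469%, and that of GOX3 from 37.0 ± 4.18% to 53.9 ± 2.92%. Whether GOX3 serves photorespiration in these cells was not tested, so the glycolate oxidase sum is one of a gene family and not of the step. Hydroxypyruvate reductase was 48.5 ± 1.02 CPM per kb in the light and 41.9 ± 0.937 in the dark, with HPR2 at 82.7% and 94.8% of it, and HPR1 at 8.87 ± 3.1% and 0.184 ± 0.126%. The sum of the mitochondrial serine hydroxymethyltransferases SHM1 and SHM2 was 65.2 ± 5.0 CPM per kb in the light and 38.8 ± 4.05 in the dark, with SHM1 at 46.3 ± 5.28% and 13.7 ± 1.82%. The H proteins summed to 108 ± 26.6 CPM per kb in the light and 33.8 ± 7.13 in the dark, of which GLDH2 was 31.3 ± 6.61% and 96.9 ± 2.79%. The P proteins summed to 75.9 and 77.0 CPM per kb. The 4 Dark grown sums lay below the 4 Light grown sums for the aminotransferases GGT1 and GGT2 (18.6 and 13.3 CPM per kb), the mitochondrial hydroxymethyltransferases, the H proteins and the reductases, and the sums overlapped for glycolate oxidase and the P proteins. These sums are descriptions and were not tested.

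**Figure D4:**
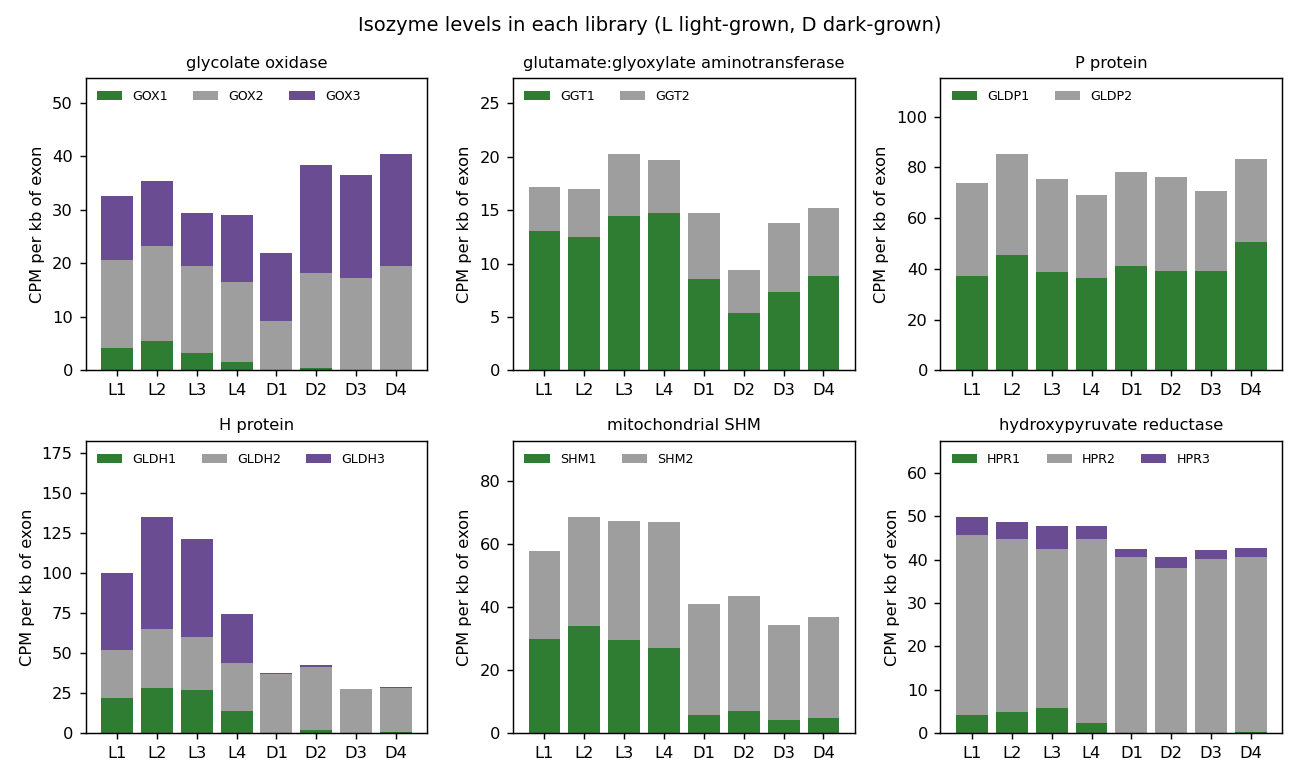
Level of 6 enzyme families in CPM per kb of exon on the y axis, from 0, stacked by isozyme, with 1 bar per library (L1 to L4 Light grown, D1 to D4 Dark grown). SHM1 and the H proteins GLDH1 and GLDH3 take a far smaller part of the Dark grown bars, and GLDH2 makes up 96.9% of the H protein level there.

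Ordered by level in the light, GLDP1 led with 39.5 ± 4.14 CPM per kb, followed by SHM1 (30.1 ± 2.88) and GLDT (27.1 ± 2.13), whose ranges overlapped. GOX2 (16.4 ± 1.18), GLYK (13.9 ± 3.14) and GGT1 (13.7 ± 1.09) came next and each overlapped its neighbour. HPR1 (4.30 ± 1.48), GOX1 (3.62 ± 1.65) and AGT1 (2.52 ± 0.993) formed the next run of overlapping genes, and PGLP1 was left out of the order because its reads cannot be told from those of its copy. In the dark GLDP1 was still first at 42.5 ± 5.53 CPM per kb. GLDT (17.3 ± 2.36), GOX2 (15.9 ± 4.58) and GLYK (10.5 ± 0.096) followed with overlapping neighbours, then GGT1 (7.51 ± 1.59) and SHM1 (5.37 ± 1.26), which overlapped. AGT1, GOX1 and HPR1 were at 0.191, 0.142 and 0.0772 CPM per kb in the dark and overlapped. SHM1 thus stood second among the members in the light and sixth in the dark.

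Genes of the same organelles outside the pathway were set beside the members. The share called over all genes tested was 10.0%, with 6.31% lower and 3.69% higher. Of 17 other peroxisomal genes, for import, fatty acid breakdown and the glyoxylate cycle, 16 were tested and 1 fell, PEX14 of the import machinery (log2 fold change -0.38, adjusted p = 0.0485), with a list median of 0.14. ACX2, a peroxisomal acyl-CoA oxidase, had a log2 fold change of 0.93 and did not pass the test (adjusted p = 0.0674), but it did without Light-RNA4 (adjusted p = 0.0453) or Dark-RNA2 (0.0115). The PEX14 call was lost when Light-RNA1, Light-RNA2, Light-RNA3, Dark-RNA2, Dark-RNA3 or Dark-RNA4 was left out (adjusted p = 0.062 to 0.15). Of 15 other mitochondrial genes, for the citric acid cycle and respiration, all were tested, the 2-oxoglutarate dehydrogenase gene AT5G65750 fell by 0.32 on the log2 scale (adjusted p = 0.0399), the citrate synthase gene CSY4 rose by 0.37 (adjusted p = 0.0304), and the list median was 0.06. The first call was lost without any Light grown library, Dark-RNA1 or Dark-RNA3 (adjusted p = 0.0557 to 0.129), and that of CSY4 without Light-RNA1, Light-RNA2, Light-RNA3, Dark-RNA3 or Dark-RNA4 (adjusted p = 0.0611 to 0.0904). The median of the 5 peroxisomal members was -3.70 and that of the 3 mitochondrial members -0.64, on the same scale. No test of one list against another was made.

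**Figure D5:**
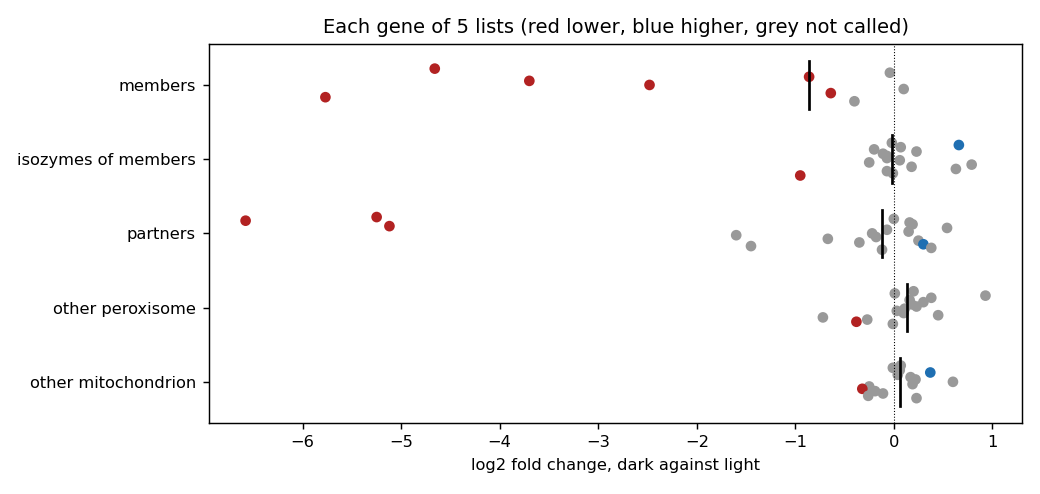
Log2 fold change, dark against light, of every tested gene (points, x axis) in 5 lists on the y axis, with a black line at each list's median. The members have the lowest median, -0.86, and the other peroxisomal and mitochondrial genes lie mostly near 0, with medians of 0.14 and 0.06.

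The genes whose pattern over the 8 libraries was closest to each called member were found by the root mean square difference of centred log2 CPM, among 12503 genes outside the member list. Closest to GOX1 was PSAD-1, a subunit of photosystem I (0.50), closest to SHM1 was PSBY of photosystem II (0.21), and closest to AGT1 was G6PD1, a plastid glucose-6-phosphate dehydrogenase (0.84). The nearest gene to HPR1 was TZP (0.60). Only genes with a mean log2 CPM of at least 3 were searched, so weakly expressed genes were left out. GGT1 and GLDT, whose changes were small, had closer neighbours, AT2G35820 (0.09) and AT4G04340 (0.05).

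The promoters, taken as 250 bases before to 50 bases after each annotated start, were searched on both strands for short motifs linked to light-regulated genes. The I-box (GATAAG) was found in 1 member promoter, that of AGT1, where it lay 38 to 43 bases after the start on the antisense strand, and in 14.6% of 27635 promoters, and the GT-1 motif (GGTTAA) in 0 member promoters and 16.7% of all. These matches are descriptions of letters in a window.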

How the data were processed

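RNA was sequenced from 8 cultures, 4 Light grown and 4 Dark grown. The 8 MNase-seq samples of the series were not analysed here. Using the Araport11 annotation, the authors mapped reads to TAIR10 by TopHat2 and obtained gene counts from HTSeq, and the deposited values are raw counts. Versions, counting mode and strand setting are not given in the sources used here. A second deposited table holds the outcome of the authors' own edgeR comparison (fold change, mean level, p-value and false discovery rate per gene) and was not used.

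From the counts, genes were filtered with filterByExpr of edgeR 4.0.16 (minimum count 10, minimum total 15), scaled by TMM and tested dark against light with the robust quasi-likelihood test in R 4.3.3, with p-values adjusted over 19129 genes and a threshold of 0.05. CPM values were scaled by TMM, SE was derived from the F statistic, and SDs are over 4 libraries. Isozyme ratios were tested by exact permutation. Exon lengths, positions and sequences came from RefSeq TAIR10.1, to which 27636 of 28598 identifiers matched, and whose nuclear chromosomes have the lengths of TAIR10. Members and lists were chosen with earlier results of these data known. Genes named were the members, the other photorespiration genes that were called or in a tested isozyme pair, at most the 3 genes with the smallest adjusted p from each other list, and for likeness the nearest gene with a mean log2 CPM of at least 3. PGLP2, GLDH2, CAT1, AGT2, AGT3, GLU1, GLN2, mtLPD1, mtLPD2, RHD6, RHS3, CA1 and the genes overlapping GOX1 and GLDP1 fall outside this rule and were named after their values were seen. The cultures were described as run in duplicates, so p-values measure the spread between these libraries, which may be partly technical. Libraries of one group differed by more than counting noise, so none was treated as a repeat deposit of another library, which does not show that they came from separate cultures. In simulated counts of 18943 genes, the test called 97.8% of genes changed by -4 on the log2 scale, 78.7% by -2 and 47.9% by -1. Floors cover counting error only. Alternatives tried were other scalings, filters and tests (DESeq2 1.42.0 among them), the replicate number as a block, single-library omissions, a subset of libraries, summed copies and other pseudocounts. The search for a further promoter motif is not reported here.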

Additional observations from a re-analysis of the deposited data

Results flagged for a closer look

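Dixon's test at the 95% level was applied to the 4 libraries of each group for each named gene, 59 groups in all, of which about 3 would be flagged by chance and 2 were. GGT2, the second glutamate:glyoxylate aminotransferase gene, stood at 9.93 CPM (305 counts) in Dark-RNA2 against 15.0 to 15.6 CPM in the other Dark grown libraries, and GGT1 was also lowest there among Dark grown libraries, at 11.8 CPM. IDH1, a mitochondrial isocitrate dehydrogenase gene, stood at 231 CPM in Dark-RNA4 against 233 CPM in the other Dark grown libraries, a gap that is small on the scale of its level.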

How the results depend on the processing

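The number of members called was 5 to 7 under all 18 alternatives, and GGT1, SHM1, GLDT and HPR1 kept their direction and their call in all of them, as did GLDH1 and GLDH3. GOX1 lost its call only when its counts were summed with those of GOX2 (log2 fold change -0.34, adjusted p = 0.401). Over all genes 1912 were called, 3356 by DESeq2, 5387 with the 4 libraries paired with MNase-seq, and 962 to 2873 with 1 library left out. Other photorespiration genes called numbered 6, 17 with the MNase-paired libraries and 3 to 8 with 1 library left out. Other peroxisomal genes called numbered 1, 0 with DESeq2 size factors, library totals, no filter or at least 1 CPM in 4 libraries, 2 by DESeq2, 5 with the MNase-paired libraries (1 lower and 4 higher) and 0 to 3 with 1 library left out. The single call was higher, not lower, with the likelihood ratio test and the replicate block, where ACX2 passed (adjusted p = 0.011 and 0.0358) and PEX14 did not (0.0552 and 0.0814). Other mitochondrial genes called numbered 2, 1 with library totals, no filter or the likelihood ratio test, 0 with the replicate block, 4 with the MNase-paired libraries and 0 to 2 with 1 library left out. The cause was not tested. The isozyme ratios changed numbered 8, and 6 to 8 under the alternatives.

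The log2 fold change of GOX2 was -0.15 to 0.15 with 1 library left out, turning positive (0.15) without Dark-RNA1, and was 0.10 with the MNase-paired libraries, that of HPR2 was -0.06 to 0.01 with 1 library left out, at 0.00 without Light-RNA1, 0.01 without Light-RNA4 or Dark-RNA2 and 0.07 with the MNase-paired libraries, and that of CAT3 was 0.13 with the MNase-paired libraries. Replicate numbers are not stated to mark shared cultures, and the same-numbered pairs correlated at -0.144, 0.582, -0.0248 and 0.219. Blocking on replicate number, 2221 genes and 6 members were called, and GOX3, HPR3 and PMDH1 were not called (adjusted p = 0.0504, 0.0534 and 0.0749). Scalings moved the median of all genes by at most 0.034. With the MNase-paired libraries the log2 fold changes were -5.94 for GOX1, -4.76 for AGT1, -6.63 for GLDH1, -8.00 for GLDH3 and -6.03 for PLGG1. Depth limits GOX1, AGT1, HPR1, PLGG1, GLDH1 and GLDH3 in the dark, where single libraries held 0 to 50 counts.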
